A study of Mus musculus with 18 samples.

Results

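De novo lipogenesis, the making of fatty acids from carbohydrate carbon, was followed through 10 genes that encode its enzymes and regulators, Acly, Acaca, Acacb, Fasn, Me1, Elovl6, Scd1, Srebf1, Mlxipl and Thrsp. They are 10 of the 18193 genes that the array's platform annotation names with at least 1 probe set of their own. All probe sets whose single gene symbol is one of the 10 were taken, which gave 23 probe sets. The 20 of these with a mean signal above the 40th percentile of the array were tested, and at least 1 probe set of each gene was among them.

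Livers came from male C57BL/6J mice, a strain that the strain field of the labels spells C56BL/6J. From 5 weeks of age the mice ate 1 of 3 diets for 20 weeks, either AIN93G alone as the control, AIN93G with 0.05% quercetin or AIN93G with 1% quercetin, a plant flavonol. Each diet had 12 mice housed 3 per cage, and 6 mice per diet were put on arrays, each array holding biotin-labelled RNA of 1 liver. The mice were on a 12 hour light and dark cycle. The labels used here give neither the cage of a mouse nor its hour of killing or last meal.

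In the liver, citrate that leaves the mitochondria is split into acetyl-CoA, which is carboxylated to malonyl-CoA and built into palmitate, and the palmitate is then lengthened and desaturated before it enters triglyceride. Feeding turns the pathway on through insulin, which acts by way of the transcription factor SREBP-1c, and through glucose, which acts by way of the transcription factor ChREBP. The genes of the pathway are known to respond together to feeding, fasting and the carbohydrate content of the diet.

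Promoter sequence was at hand in RefSeq, assembly GRCm38.p6, for 9 of the 10 genes, in 13 entries, and Scd1 was the gene not among them. The 250 bases before each start were searched on both strands for TCACNCCAC, a form of the sterol regulatory element bound by SREBP, for CACGTG, the E-box, for CCAAT, the box bound by NF-Y, and for GGGCGG, the GC box bound by Sp1. CCAAT was found in 7 of the 13 entries, on 6 genes, and in 33.8% of 32851 RefSeq promoter windows, and GGGCGG in 5 of the 13, on 4 genes, and in 32.7% of windows. TCACNCCAC was found in 1 of the 13, an entry of Mlxipl, and in 1.05% of windows, and CACGTG in 1 of the 13, also of Mlxipl, and in 6.02% of windows. The entries of Acaca and Elovl6 held no match to any of the 4 motifs. Matches are letters in a window and no evidence of binding. The 120 bases before the start are shown for Fasn (chr11:120824548-120824667), Thrsp (chr7:97417551-97417670) and Acly (chr11:100528001-100528120), as examples that all hold marked matches. All 3 lie on the minus strand and are written 5′ to 3′ with the gene. The Thrsp and Acly stretches adjoin the annotated end of the gene. The Fasn stretch lies inside the annotated gene span, 120805958 to 120825166, before a start within it. All windows searched for Acaca, Acacb and Srebf1 also lie inside their gene spans. Capitals mark CCAAT or its reverse complement in Fasn and Thrsp, and GGGCGG or its reverse complement in Acly. In Fasn the last forward and reverse matches of CCAAT overlap.
Fasn: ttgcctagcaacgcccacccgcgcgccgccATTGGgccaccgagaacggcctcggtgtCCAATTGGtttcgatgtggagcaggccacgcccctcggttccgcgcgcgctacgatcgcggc
Thrsp: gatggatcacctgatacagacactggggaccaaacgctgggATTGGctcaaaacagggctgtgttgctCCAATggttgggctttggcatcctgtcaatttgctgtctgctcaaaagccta
Acly: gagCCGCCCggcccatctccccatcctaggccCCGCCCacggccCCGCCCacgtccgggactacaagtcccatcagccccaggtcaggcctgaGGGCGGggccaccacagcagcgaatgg

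Levels below are log2 of the quantile-normalized intensity after adding 16. A gene is given by its leading probe set, the one with the highest mean over the 18 arrays, unless another probe set is named. Levels of different probe sets are on different scales and are not set against each other. Changes are log2 differences with the standard error (SE) of limma's fit to 3 diet means over all 18 mice, and p-values were adjusted over all 22885 tested probe sets. The arrays as deposited differed in brightness, with a median between 14.17 and 21.92, which is why they were normalized. No arrays were identical, and arrays of 1 diet correlated at 0.960 to 0.987. Across all tested probe sets, 2 passed at 1% against control, namely Cfap298 at a change of −0.96 ± 0.13 and Tead1 at 0.61 ± 0.09. Cfap298 also passed at 0.05%, at −0.90 ± 0.13, and these genes were named after their values were seen. Markers of hepatocytes were bright on every array: the summed intensity of the 8 measured ones, albumin and transthyretin among them, lay between 82860 and 86040 in control livers, between 82030 and 88470 at 0.05% and between 84370 and 89530 at 1%. Most of these probe sets are so bright that quantile normalization holds their values closely, so the sum shows that hepatocyte RNA was there and not how much.

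At 1% quercetin against control the lipogenic genes lay lower in the mean, and none of them passed the adjusted threshold. All 10 genes had a negative log2 change, as did 49.9% of all tested probe sets, with a median of −0.63 against 0.0002 over all tested probe sets. The sizes ran from −1.67 for Thrsp, Fasn at −1.33 and Elovl6 and Srebf1 at −1.01 each, to −0.09 for Mlxipl and −0.05 for Scd1. Of the 20 tested probe sets 0 passed (smallest adjusted p = 0.329, limma), beside 0.00874% of all tested probe sets. At an unadjusted p under 0.05, 10 of the 20 probe sets were lower and 0 higher, where 3.97% of all tested probe sets were lower and 4.11% higher. These 10 probe sets fall on 5 genes, and by leading probe set 4 of the 10 genes were among them. In RNA of whole liver, fewer cells of a type and less RNA per cell cannot be told apart.

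The step that makes cytosolic acetyl-CoA belongs to Acly, ATP citrate lyase. Its log2 level was 10.53 at the lowest, 10.64 at the median and 10.87 at the highest in livers at 1%, against 10.45, 11.44 and 12.11 in control livers. The 1% mice lay in a narrow band near the bottom of the control range, and 5 of the 6 control mice were above all of them. The mean was 10.68 ± 0.13 at 1% and 11.35 ± 0.61 in control livers (SD, n = 6 each), a change of −0.67 ± 0.30 (adjusted p = 0.580, limma). Of the other tested Acly probe sets, 1451666_at and 1425326_at gave −0.75 ± 0.37 and −0.90 ± 0.40. The dim 1446315_at gave 0.04 ± 0.11, and a further 2 were too dim to test.

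Acetyl-CoA is carboxylated by Acaca, the cytosolic acetyl-CoA carboxylase that supplies fatty acid synthesis, and by Acacb, the form at the mitochondrial surface whose malonyl-CoA restrains fatty acid entry. Acaca had a log2 level of 7.71, 8.31 and 8.83 (lowest, median, highest) at 1%, against 7.86, 8.76 and 9.24 in control livers. The ranges overlapped in part, with 2 control mice above every 1% mouse and 1 of the 1% mice below every control, and the change was −0.44 ± 0.24 (adjusted p = 0.681). Its dimmer probe set 1427595_at gave −0.04 ± 0.18. Acacb had 6.17, 7.94 and 8.93 at 1%, against 7.998, 8.38 and 8.92 in control livers. Here 3 of the 1% mice were below every control mouse, while the highest 1% mouse was level with the highest control. The Acacb change of −0.59 ± 0.38 (adjusted p = 0.729) became −0.26 without replicate 1 of the 1% diet, the mouse at 6.17. The other Acacb probe set, 1445754_at, was too dim to test.

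Fasn, fatty acid synthase, builds palmitate from malonyl-CoA and NADPH. Its log2 level was 9.48, 9.91 and 10.34 (lowest, median, highest) at 1%, against 9.79, 11.41 and 12.58 in control livers. All 6 mice at 1% were below the control mean and 4 control mice were above every 1% mouse, while 2 control mice lay inside the 1% range. The mean was 9.93 ± 0.32 at 1% and 11.26 ± 1.13 in control livers (SD, n = 6 each), a 2.51-fold lower level, with a log2 change of −1.33 ± 0.45 (adjusted p = 0.477, limma). Me1, the cytosolic malic enzyme that yields NADPH for this synthesis, had 10.84, 11.13 and 11.64 at 1%, against 10.80, 11.26 and 12.05 in control livers. Its medians were close, and its change was −0.22 ± 0.28 (adjusted p = 0.880), or −0.30 ± 0.35 by its other probe set, 1416632_at. The Me1 change was −0.09, −0.12 and −0.34 when control replicates 3, 1 and 4 were left out in turn.

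Elovl6 lengthens palmitate to stearate. It had a log2 level of 8.82, 9.03 and 10.12 (lowest, median, highest) at 1%, against 9.59, 10.13 and 11.55 in control livers. At 1% the mice formed 4 below every control and 2 inside the control range. The change was −1.01 ± 0.36 (adjusted p = 0.492), a 2.01-fold lower level, and its other probe sets 1417403_at and 1442656_at gave −0.84 ± 0.37 and −0.74 ± 0.33.

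Scd1, the desaturase that turns stearate into oleate, was read by a pair of probe sets that differed in size of change. The leading one, 1415964_at, ranked between 9th and 29th brightest of all probe sets on every array, where quantile normalization fixes the values closely. Its level was 13.42, 13.45 and 13.48 at 1%, against 13.46, 13.47 and 13.59 in control livers, a change of −0.05 ± 0.06 (adjusted p = 0.879). As deposited its intensity was 10151, 10733 and 11139 at 1%, against 10829, 12110 and 12691 in control livers, and on values without normalization the change was −0.17. The dimmer 1415965_at had a level of 9.35, 10.44 and 11.08 at 1%, against 10.56, 11.13 and 11.90 in control livers. There 4 of the 1% mice were below every control, and the change was −0.80 ± 0.28 (adjusted p = 0.492).

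Among the regulators, Srebf1 encodes the transcription factors SREBP-1a and SREBP-1c, of which SREBP-1c raises lipogenic genes in response to insulin. The log2 level of Srebf1 was 8.503, 9.45 and 9.73 (lowest, median, highest) at 1%, against 8.89, 10.17 and 12.19 in control livers. The control mice split widely, with 3 between 11.20 and 12.19 and 3 between 8.89 and 9.14. Of the 1% mice 1 lay below every control, and the others lay above the lower 3 controls and below the upper 3. The mean was 9.34 ± 0.45 at 1% and 10.35 ± 1.48 in control livers (SD, n = 6 each), and the change was −1.01 ± 0.51 (adjusted p = 0.648, limma). It was −0.64 without control replicate 2. Mlxipl encodes ChREBP, which answers to glucose. Its level was 9.98, 10.31 and 10.51 at 1%, against 9.95, 10.34 and 10.81 in control livers, with overlapping ranges and a change of −0.09 ± 0.15 (adjusted p = 0.923). Leaving out control replicate 1 gave 0.001, and leaving out control replicate 4 gave −0.17.

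Thrsp, a nuclear protein induced by thyroid hormone and carbohydrate that raises lipogenic enzyme activity, had the lowest p of the 10 genes in this comparison, ranking 78th of all tested probe sets. Its log2 level was 9.21, 10.46 and 11.37 (lowest, median, highest) at 1%, against 10.51, 12.15 and 13.22 in control livers. Of the control mice 5 were above every 1% mouse, and the lowest control mouse fell at the middle of the 1% range. The mean was 10.38 ± 0.84 at 1% and 12.05 ± 0.97 in control livers (SD, n = 6 each), a 3.19-fold lower level, with a log2 change of −1.67 ± 0.44 (adjusted p = 0.329, limma). Its other probe sets 1422973_a_at and 1444166_at gave −2.09 ± 0.57 and −1.24 ± 0.52.

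**Figure D1:**
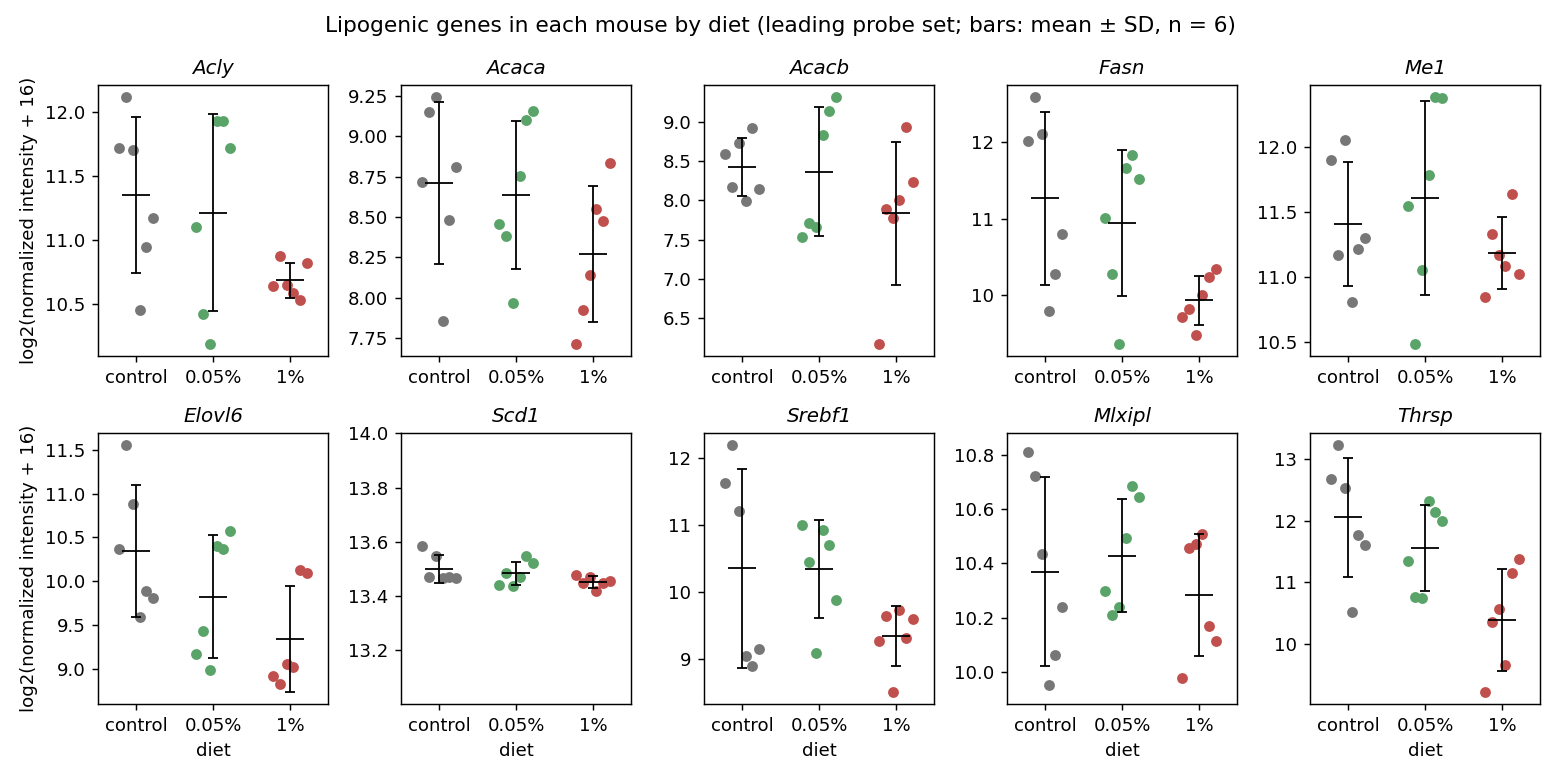
Log2 level (vertical axis, log2 of normalized intensity plus 16, scaled separately in each panel) of the leading probe set of the 10 genes in each mouse on the control, 0.05% and 1% diets, with points for mice and bars for the mean ± SD (n = 6 per diet). The 6 mice at 1% form a tight low band for Fasn and Acly, while the control mice of Srebf1 split into 3 high and 3 low.

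The ranges of the 1% and control mice overlapped in each of the 20 probe sets, beside 0.223% of all tested probe sets in which all 1% mice were lower than all controls. All 6 mice at 1% were below the control mean in 14 of the 20, beside 5.63% of all tested probe sets. A log2 change below −1 was found in 6 of the 20, on 4 genes, beside 0.131%. Probe sets of 1 gene read the same transcripts and are not independent. The 10 genes also correlated with each other, at a mean of 0.61 within diets. The median SE of a change was 0.329 over the 10 genes and 0.133 over all tested probe sets, so the shares come from probe sets of unlike spread. The count of 10 with an unadjusted p under 0.05 became 6 when control replicate 1 was left out and 5 when control replicate 2 or 3 was.

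**Figure D2:**
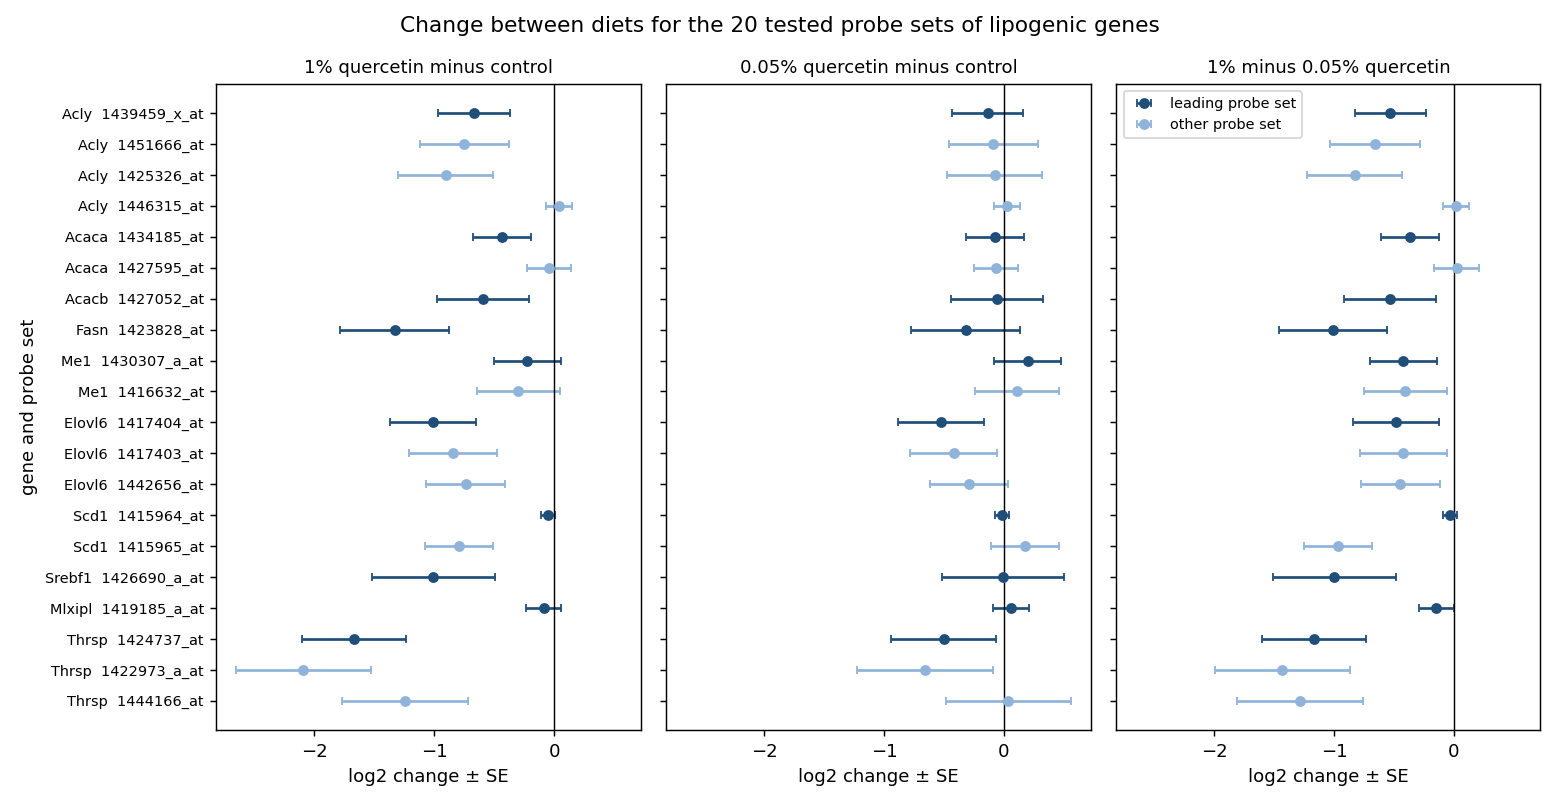
Log2 change ± SE (horizontal axis) of the 20 tested probe sets in 1% minus control, 0.05% minus control and 1% minus 0.05% quercetin, with dark points for leading and light points for other probe sets. In the left and right panels most points lie left of 0, and in the middle panel they straddle 0.

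At 0.05% quercetin against control the median change of the same genes was small, and single genes ran from −0.52 to 0.20. With a median SE of 0.329 over the 10 genes, changes of these sizes were not resolved. Of the 10 genes 8 had a negative log2 change, beside 50.8% of all tested probe sets, with a median of −0.07 against −0.003 over all tested probe sets. Of the 20 probe sets 0 passed (adjusted p = 0.896 to 0.999, limma), beside 0.00437% of all tested, and 0 had an unadjusted p under 0.05, beside 2.61% of all tested that were lower and 3.33% that were higher at that p. In 0 of the 20 were all 6 mice at 0.05% below the control mean, beside 4.63% of all tested, or below every control mouse, beside 0.114%. Elovl6 was 8.98, 9.90 and 10.57 (lowest, median, highest) at 0.05%, against 9.59, 10.13 and 11.55 in control livers, a change of −0.52 ± 0.36. Thrsp was 10.74, 11.67 and 12.32 at 0.05%, against 10.51, 12.15 and 13.22 in control livers, a change of −0.50 ± 0.44. Fasn was 9.36, 11.26 and 11.83 at 0.05%, against 9.79, 11.41 and 12.58 in control livers, a change of −0.32 ± 0.45. For each of these 3 genes the ranges overlapped.

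Changes of the other genes at 0.05% were smaller than their standard errors. Acly was at −0.14 ± 0.30, Acaca at −0.07 ± 0.24 and Acacb at −0.06 ± 0.38, and Srebf1 at −0.01 ± 0.51. The leading Scd1 probe set was at −0.02 ± 0.06 and 1415965_at at 0.17 ± 0.28, while Mlxipl was at 0.06 ± 0.15 and Me1 at 0.20 ± 0.28. For Srebf1 the mean of 10.34 ± 0.73 at 0.05% stood beside 10.35 ± 1.48 in control livers (SD, n = 6 each), and leaving out control replicate 2 gave 0.36 and leaving out control replicate 5 gave −0.30.

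At 1% against 0.05% quercetin all 10 genes again had a negative log2 change, beside 49.6% of all tested probe sets, with a median of −0.51 against 0.002 over all tested probe sets. This comparison shares its 1% mice with the one against control. Of the 20 probe sets 0 passed, where 0% of all tested probe sets did, while 1072 of all tested were lower and 1080 higher at an unadjusted p under 0.05 by limma. Among the 20, 5 were lower at an unadjusted p under 0.05 and 0 were higher, where 4.68% of all tested were lower and 4.72% higher, and by leading probe set these were 2 genes, Thrsp and Fasn. That count was 3 without 0.05% replicate 1, 4, 5 or 6 or without 1% replicate 1, and 9 and 10 without 0.05% replicates 2 and 3.

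The smallest p of a lipogenic probe set between the quercetin diets was that of Scd1 1415965_at. It was 9.35, 10.44 and 11.08 (lowest, median, highest) at 1%, against 10.65, 11.36 and 12.03 at 0.05%. At 1% the mice were 4 below every 0.05% mouse and 2 within its range, and the change was −0.97 ± 0.28 (adjusted p = 0.315, limma). The leading Scd1 probe set was at −0.03 ± 0.06.

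Thrsp was 9.21, 10.46 and 11.37 at 1%, against 10.74, 11.67 and 12.32 at 0.05%, with 4 of the 1% mice below every 0.05% mouse. The change was −1.17 ± 0.44 (adjusted p = 0.428). Fasn was 9.48, 9.91 and 10.34 at 1%, against 9.36, 11.26 and 11.83 at 0.05%, so that the lowest mouse of all was on 0.05%, and the change was −1.01 ± 0.45 (adjusted p = 0.506). Srebf1 was 8.503, 9.45 and 9.73 at 1%, against 9.09, 10.57 and 10.999 at 0.05%, where 5 of the 0.05% mice were above every 1% mouse. Its change was −0.999 ± 0.51 (adjusted p = 0.564).

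The remaining changes at 1% against 0.05% were −0.53 ± 0.38 for Acacb, −0.53 ± 0.30 for Acly, −0.48 ± 0.36 for Elovl6, −0.42 ± 0.28 for Me1, −0.36 ± 0.24 for Acaca and −0.15 ± 0.15 for Mlxipl. Acacb was at −0.20 without replicate 1 of the 1% diet. The ranges of the diets overlapped in each of the 20 probe sets, beside 0.376% of all tested in which all 1% mice were lower. All 6 mice at 1% lay below the 0.05% mean in 12 of the 20, beside 6.32% of all tested.

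Lipogenic genes were among the more variable genes of these livers. The median SD between mice over the 10 genes was 0.555 in control livers, 0.718 at 0.05% and 0.372 at 1%, beside 0.217, 0.208 and 0.229 over all tested probe sets. The residual SD of 8 of the 10 genes was above the 90th percentile of all tested probe sets, with Srebf1 at the 99.6th and Fasn at the 99.4th. The exceptions were Mlxipl, at the 63.2nd, and the very bright leading Scd1 probe set, at the 0.11th. The median SE of a log2 change between diets was 0.329 over the 10 genes and 0.133 over all tested probe sets. The SD was smaller at 1% than in control livers for 9 of the 10 genes, beside 46.6% of all tested probe sets, and Acacb was the exception, at 0.91 at 1% and 0.37 in control livers. The SD was smaller at 0.05% than in control livers for 7 genes, beside 53.1%, and smaller at 1% than at 0.05% for 7 genes, beside 43.4%. These differences in spread were not tested.

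**Figure D3:**
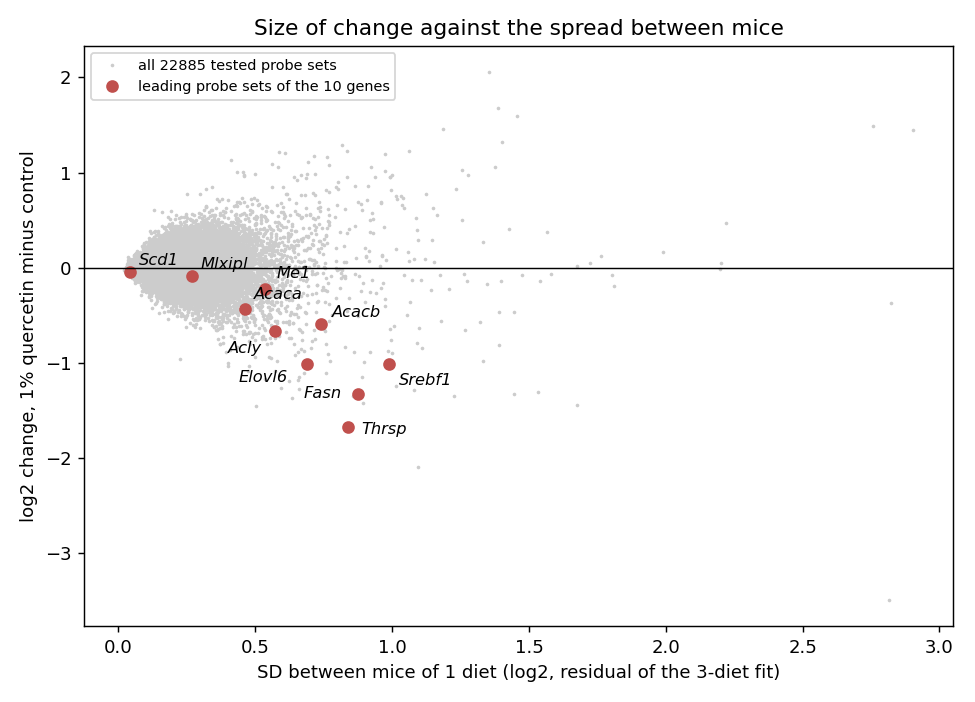
Log2 change of 1% minus control (vertical axis) against the SD between mice of 1 diet (horizontal axis, log2) for all 22885 tested probe sets in grey and the leading probe sets of the 10 genes in red. Thrsp, Fasn, Srebf1 and Elovl6 lie below −1 and far to the right of most probe sets.

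Mouse by mouse, most of the genes tended to be high or low together on the control and 0.05% diets, with exceptions. Acacb was highest among control mice in replicate 5, at a log2 level of 8.92. Srebf1 was highest among 0.05% mice in replicate 1, at 10.999. Each gene was set on a scale of its own SDs from its mean over the 18 mice, and the 10 values of a mouse were averaged. Control replicates 1, 2 and 3 averaged 1.18, 1.16 and 1.12, and control replicates 4, 5 and 6 averaged −0.87, −0.21 and −0.09. At 0.05% replicates 1, 2 and 3 averaged −0.15, −0.53 and −0.93, and replicates 4, 5 and 6 averaged 0.72, 1.17 and 0.99. Some of the lower mice were mixed. In control replicates 5 and 6 and 0.05% replicate 1, respectively 3, 4 and 5 of the 10 genes were above their mean. At 1% all 6 mice were below 0, at −1.26, −0.60, −0.67, −0.61, −0.20 and −0.23. High mice were thus found on the control and 0.05% diets and none on 1%, and the lowest single mouse was 1% replicate 1. The mice were housed 3 per cage and the high and low mice of the control and 0.05% diets came in runs of 3 replicate numbers, but the labels tie no mouse to a cage. Whether mice of a run shared a cage was not tested, so the 6 mice of a diet may not be independent and the p-values treat them as if they were. Fasn by itself split the control mice the same way, at 12.02, 12.58 and 12.11 in control replicates 1, 2 and 3 and at 9.79, 10.28 and 10.80 in control replicates 4, 5 and 6.

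The mean of the 45 pairwise correlations among the 10 genes over the 6 mice of a diet was 0.65 in control livers, 0.75 at 0.05% and 0.17 at 1%. On the control and 0.05% diets 3 high mice stood apart from the other 3, and with 6 mice each the values are descriptions without a test. The brightness of the arrays moved with the lipogenic average within the control and 0.05% diets but in opposite senses. The correlation of that average with the log2 of the deposited array median was −0.64 in control livers, 0.86 at 0.05% and 0.05 at 1% (n = 6 each), and the part of brightness in the mouse differences was not tested. In the adipocyte list 4 of 7 markers had a probe set and 1 was bright enough to test. Their summed intensity was 31.1 to 77.2 in control livers, 30.1 to 74.8 at 0.05% and 49.95 to 63.6 at 1%. Markers of other liver cells and of pancreas had 0 genes past the adjusted threshold in each comparison.

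At an unadjusted p under 0.05, 5 of 7 endothelial markers were higher at 0.05% against control, where 3.33% of all tested probe sets were, and 1 of 7 was higher at 1% against control, where 4.11% were. At 1% against 0.05% 1 of the 7, Cdh5, was lower, where 4.68% of all tested were. Their summed intensity was 1448 to 1980 in control livers, 1856 to 2273 at 0.05% and 1798 to 2423 at 1%. Of 6 neutrophil and lymphocyte markers 2 were lower at that p at 0.05% against control, where 2.61% of all tested were, and 2 were higher at 1% against 0.05%, where 4.72% were. The neutrophil gene S100a8 was at −1.35 at 0.05% against control and at 1.64 at 1% against 0.05%, and S100a9 was at 1.28 at 1% against 0.05%. The summed intensity of that list was 143.2 to 1348 in control livers, 107.4 to 232.8 at 0.05% and 242.9 to 807.8 at 1%. Over the 18 mice, with diet means subtracted, S100a8 and S100a9 correlated with the lipogenic average at −0.61 and −0.56, while the median of their list was −0.24. Of the 6 markers 4 were lower and 2 higher in the mean at 0.05% against control. At 1% against 0.05% 4 were higher and 2 lower.

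All 3 pancreas markers were lower in the mean at 1% than in control livers, 1 of them, Cela1, at an unadjusted p under 0.05, at −0.58 ± 0.20, where 3.97% of all tested were lower. Their summed intensity was 303.9 to 913.6 in control livers, 338.7 to 536.3 at 0.05% and 282.5 to 355.6 at 1%. Of 7 Kupffer cell and macrophage markers 0 had an unadjusted p under 0.05 in any comparison, and their median correlation with the lipogenic average was −0.40, with a summed intensity of 3721 to 6935 in control livers, 3837 to 6175 at 0.05% and 3652 to 5935 at 1%. Of 7 stellate cell markers 1 was lower at that p at 1% against control, 1 was higher at 0.05% against control and 1 was lower at 1% against 0.05%. Of 4 cholangiocyte markers 0 had such a p in any comparison. Of all tested probe sets 3.97% were lower and 4.11% higher at that p at 1% against control. The shares were 2.61% lower and 3.33% higher at 0.05% against control, and 4.68% lower and 4.72% higher at 1% against 0.05%. The part of these cell types in the lipogenic values was not tested.

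**Figure D4:**
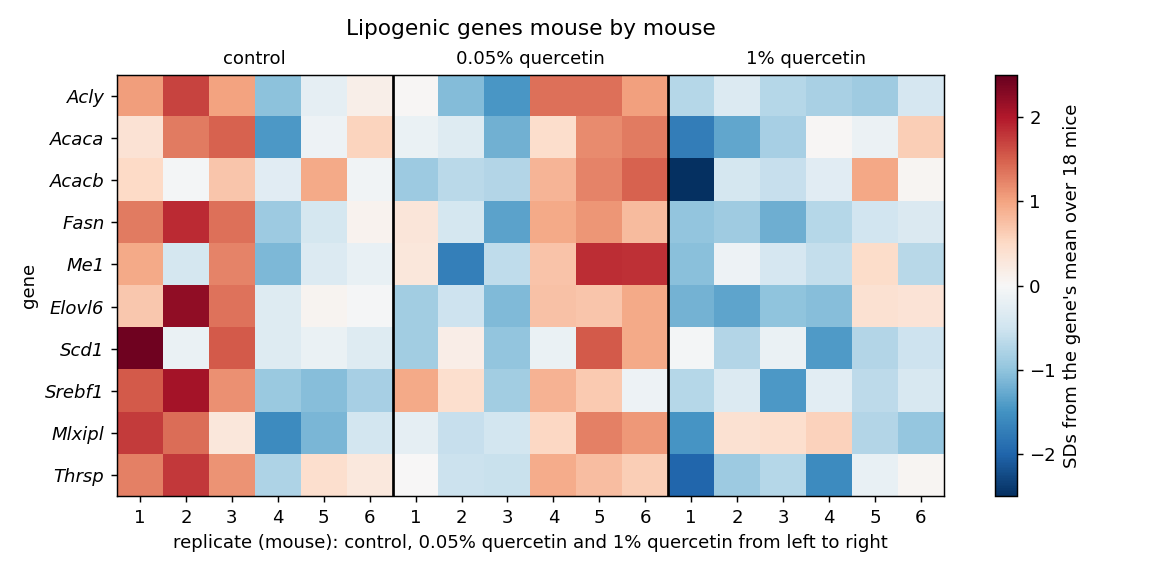
Colour gives the SDs of each gene (down the page) from its mean over 18 mice, for each mouse (across, replicates 1 to 6 of the control, 0.05% and 1% diets). Control replicates 1 to 3 and 0.05% replicates 4 to 6 are red in most genes, and the 1% mice are mostly blue.

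Genes whose mouse-to-mouse pattern was most like the lipogenic average were ranked by Pearson's r over the 18 mice after the diet means were subtracted, among 12870 other genes. The highest were Gbe1, the glycogen branching enzyme, at 0.94, Pklr, the liver pyruvate kinase, at 0.94, and Slc10a1, the bile acid uptake transporter, at 0.93. Gpam, which starts glycerolipid synthesis, was at 0.93, Mthfd1 of folate metabolism at 0.92, Ndufa8 of respiratory complex I at 0.91, Slc25a11, the mitochondrial oxoglutarate carrier, at 0.91 and Spc24 of the kinetochore at 0.90. The most opposed genes were the protease Adam9 at −0.88, the SUMO protease Senp3 at −0.87, the transcription factor Stat3 at −0.86 and Atp6ap2 of the proton pump at −0.85. Within the 1% diet alone (n = 6) the r of the 8 highest was 0.53 to 0.93, and over the mice left after the 2 farthest were dropped it was 0.85 to 0.94. These are ranks without a test. At 1% against control Gpam was at −0.74 ± 0.33 and Pklr at −0.61 ± 0.29, and Stat3 was at 0.40 ± 0.29, none past the adjusted threshold.

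Around the pathway, 8 further lists of liver genes were counted at 1% against control by leading probe set, and 0 genes in any of them passed the adjusted threshold. Beside each is the count at an unadjusted p under 0.05, where 4.11% of all tested probe sets were higher and 3.97% lower. The list for the control of SREBP-1c, in which Mid1ip1 was also placed, had 5 higher and 10 lower of 15 tested. It had 0 at that p and a median of −0.02. Mid1ip1, the paralogue of Thrsp, was at −0.88 ± 0.45 and Insig1, which holds SREBP in the endoplasmic reticulum, at −0.50 ± 0.26, while Usf1, an E-box factor, was at 0.20 ± 0.11. Genes of glycolysis and ChREBP targets had 1 higher and 8 lower of 9, of which 2 lower ones had an unadjusted p under 0.05, with a median of −0.18. The fructose pathway enzymes Tkfc and Khk were at −0.41 ± 0.13 and −0.33 ± 0.14, and the 1 higher gene of that list, Txnip, was at 0.63 ± 0.36. Genes that supply acetyl-CoA and NADPH had 4 higher and 6 lower of 10, none at an unadjusted p under 0.05, with a median of −0.08. In it Pdk4, which shuts off pyruvate dehydrogenase, was at 0.69 ± 0.38, the malate dehydrogenase Mdh1 at −0.29 ± 0.18 and the acetate-using Acss2 at −0.50 ± 0.33.

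Downstream, fatty acid modification and triglyceride assembly had 6 higher and 13 lower of 19, with 1 higher and 5 lower at an unadjusted p under 0.05 and a median of −0.15. Lpin1, a phosphatidate phosphatase, was at −1.36 ± 0.33 and Dgat2, the last enzyme of triglyceride synthesis, at −0.40 ± 0.12, while the lipid droplet coat gene Plin2 was at 0.45 ± 0.15. Genes of the SREBP-2 cholesterol pathway had 5 higher and 6 lower of 11, with 1 each at an unadjusted p under 0.05 and a median of −0.06. Mvd was at −0.98 ± 0.30, Cyp51 at 0.38 ± 0.17 and Idi1 at 0.45 ± 0.31, all enzymes of that synthesis. Genes of fatty acid oxidation driven by PPARA had 15 higher and 0 lower of 15, with 7 higher at an unadjusted p under 0.05 and a median of 0.27. Cyp4a14, a fatty acid hydroxylase, was at 2.05 ± 0.70, the thioesterase Acot1 at 1.17 ± 0.40 and the carnitine transferase Cpt2 at 0.27 ± 0.10. At 0.05% against control the PPARA list also had 15 higher and 0 lower, 2 at an unadjusted p under 0.05, where 3.33% of all tested were higher. Its median there was 0.38, beside −0.07 for the 10 lipogenic genes. The triglyceride list had 9 higher and 10 lower at 0.05% against control, with Lpin1 at −1.04 ± 0.33.

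At 1% against control the fasting response had 3 higher and 6 lower of 9, with 1 each at an unadjusted p under 0.05 and a median of −0.10. The hormone gene Fgf21 was at 1.45 ± 0.61 and Cpt1a at 0.17 ± 0.13, and Tat, an amino acid catabolic enzyme, was at −1.08 ± 0.30. Clock genes had 6 higher and 8 lower of 14, with 3 lower at an unadjusted p under 0.05 and a median of −0.14. The clock repressors Per1 and Per2 were at −0.66 ± 0.23 and −0.76 ± 0.35, and the clock output factor Hlf at −0.33 ± 0.15. Pdk4, Fgf21, Cpt1a and Irs2 each stand in more than 1 of these lists and were counted in each.

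**Figure D5:**
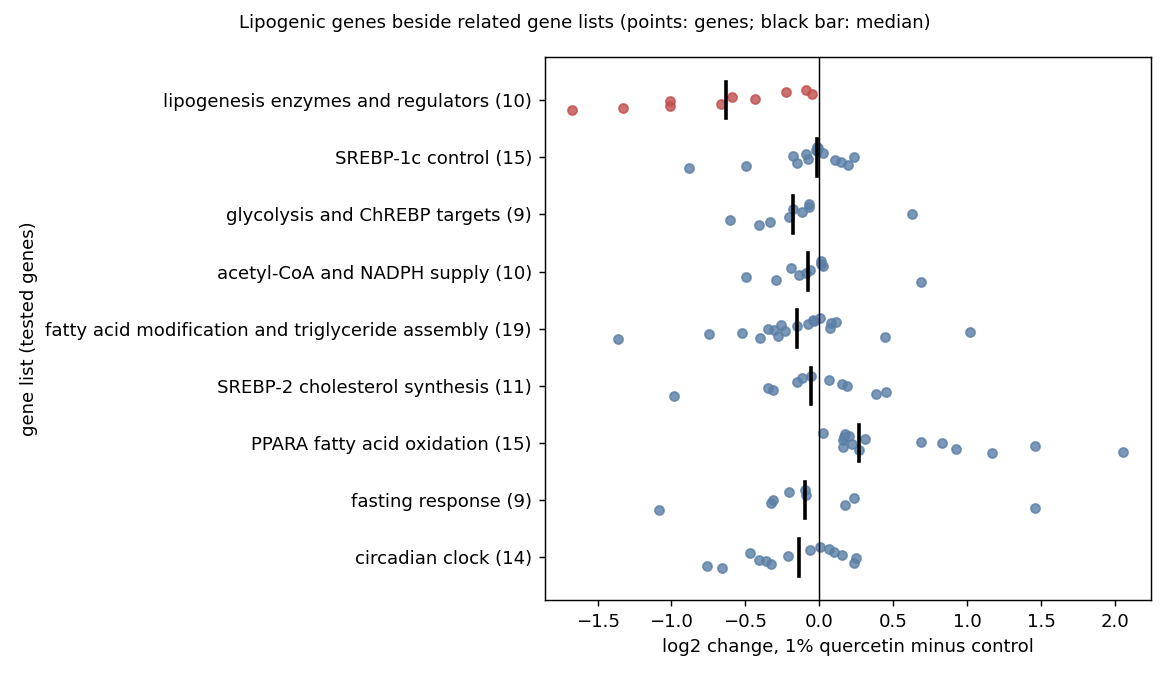
Log2 change of 1% minus control (horizontal axis) for the leading probe sets of the 10 lipogenic genes in red and of 8 related lists in blue, with the number of tested genes in parentheses and a black bar at each median. The lipogenic median of −0.63 is the lowest and the PPARA median of 0.27 the highest of the 9 medians drawn.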

How the data were processed

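Liver RNA of 18 mice was measured on Affymetrix arrays after labelling with a 3′ kit. The deposited intensity values are linear, 1 per probe set and array, from 0.0118 to 18108, and for the signal software the sources used here give no name. The 10 genes and the lists were both chosen with earlier results of these data known. Probe sets were named from the platform annotation: of 45101, 34945 had 1 symbol, 932 several and 9160 none, and 64 were controls. Intensities were quantile-normalized over non-control probe sets and log2 was taken after adding 16. Probe sets with 1 symbol and a mean above the 40th percentile, a log2 value of 4.69, were tested, 22885 in all. limma 3.58.1 under R 4.3.3 (lmFit, eBayes, 3 diet means, 15 residual degrees of freedom) gave two-sided p-values with Benjamini-Hochberg adjustment at 0.05. Samples of a diet are separate mice of unknown cage, and the number of arrays limits the precision. In the text the 20 tested probe sets of the 10 genes are given, a leading one by its gene. The 3 not tested, Acly 1439445_x_at and 1438389_x_at and Acacb 1445754_at, are given no values. Further named are the 3 genes of smallest p in each list at 1% against control, and Txnip. The 8 most like and 4 least like genes are named as well.

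The fit was tested on simulated data in which the changed probe sets were known. Alternatives were values as deposited, a common trimmed mean per array, a value of 1 added, no filter, a 60th percentile filter, 1 probe set per gene, trend and robust eBayes, array weights, only the 12 arrays compared, a replicate block, and each array left out.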

Additional observations from a re-analysis of the deposited data

How the results depend on the processing

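No probe set of the 10 genes passed the adjusted threshold under any of the 28 alternatives, and the smallest adjusted p among leading probe sets was 0.211, for Thrsp at 1% against control without control replicate 4. Of 840 gene changes under alternatives 817 kept their direction, and 23 small ones changed sign, 22 of them at 0.05% against control. Over all tested probe sets, 2 passed at 1% against control, and 1 did with values as deposited, the 60th percentile filter, 1 added, 1 probe set per gene or the 12 arrays alone, and 3 with a common trimmed mean or trend and robust eBayes (1 to 5 with an array left out, the 5 without control replicate 3). At 0.05% against control 1 passed, and 0 did with values as deposited, the 60th percentile filter, 1 added, 1 probe set per gene, the replicate block or the 12 arrays alone, and 2 with no filter (0 to 1 with an array left out). At 1% against 0.05% 0 passed, and 2 did with values as deposited or with no filter, 1 with a common trimmed mean, trend and robust eBayes or array weights, and 18 with the 12 arrays alone (0 to 2 with an array left out). The 10 lipogenic probe sets with an unadjusted p under 0.05 at 1% against control were 4 with 1 probe set per gene, which leaves 10 to count, and 13 with values as deposited (5 to 14 with an array left out). The 5 at 1% against 0.05% were 8 with values as deposited, 2 with 1 probe set per gene and 9 with array weights (3 to 10 with an array left out). With an array left out the median change of the 10 genes was −0.76 to −0.49 at 1% against control, −0.26 to 0.06 at 0.05% against control and −0.66 to −0.34 at 1% against 0.05%. The mean pairwise correlation within diets, 0.61 over 18 mice, was 0.47 with a common trimmed mean. The cause of these shifts was not tested.

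Same-numbered mice of different diets were not clearly alike. The mean correlation of their deviations was 0.14, −0.14, −0.13, −0.005, −0.09 and −0.04 for numbers 1 to 6, beside 0.009 for different numbers. Of 18 mice 3 correlated best with their own number. The labels give no pairing, and whether same-numbered mice were handled together was not tested. With the replicate block 6 lipogenic probe sets had an unadjusted p under 0.05 at 1% against control, where 10 did without it, and 0 of all tested probe sets passed at 0.05% against control, where 1 did without it.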
